A study of Mus musculus with 24 samples.

Results

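The genes described here encode 10 channels, exchangers, carriers and associated proteins of the lysosomal membrane: *Mcoln1*, *Tpcn1*, *Tpcn2*, *Clcn7*, *Ostm1*, *Ctns*, *Slc36a1*, *Slc38a9*, *Slc17a5* and *Cln3*. They were chosen by name from a gene table of 55487 genes, and all 10 were among the 15401 genes with enough counts to be tested. The data are mRNA sequencing of mouse embryonic fibroblasts (MEFs), a connective tissue cell grown in culture. Wild-type (WT) MEFs and MEFs lacking the transcription factors TFEB and TFE3 (Tfeb/Tfe3 KO in the labels, DKO here) were treated with the solvent DMSO at 0.1%, with torin1 at 100 nM or with MK-8722 at 10 µM. Torin1 inhibits the kinase MTOR and MK-8722 activates the kinase AMPK. Each of the 6 groups held 4 libraries, 24 in all, and the treatment time for sequencing is not given in the sources used here. The cells of both genotypes came from another laboratory, and no source used here describes more than a single line of each genotype, so the gene loss and other differences between the lines cannot be told apart. The labels give the 4 libraries of each group different passages, 7, 8, 9 and 11 in WT MEFs and 8, 9, 10 and 11 in DKO MEFs. They do not say how the passages relate to each other. The p-values therefore measure the spread between these libraries, which differ in passage, and not between separately derived lines.

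A lysosome is an acidic compartment that digests proteins, lipids and sugars. Its channels release ions such as calcium and sodium, its chloride-proton exchanger balances the charge brought in by the proton pump, and its carriers export amino acids and sugars to the cytosol. TFEB and TFE3 are related transcription factors that bind E-boxes in the promoters of many lysosomal genes. MTORC1, the kinase complex that torin1 blocks, phosphorylates them and holds them in the cytosol.

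The libraries held between 24668921 and 33332562 gene counts, and their RNA integrity numbers ran from 9.7 to 9.9 in all but 1, the DKO library with MK-8722 of passage 10, at 7.9. *Tfeb* mRNA was at 22.9 CPM ± 1.74 (SD, n = 4; CPM, counts scaled to library size) in WT MEFs with DMSO and at 2.25 CPM ± 0.289 in DKO MEFs. *Tfe3* mRNA was at 120 CPM ± 1.17 and 124 CPM ± 2.11 in the same groups, so its level does not check the genotype label. The related gene *Mitf* was at 9.8 CPM ± 1.03 and 30.5 CPM ± 4.11 there. It was higher in DKO MEFs with DMSO, torin1 and MK-8722, by 1.64, 2.25 and 1.95 on the log2 scale. Torin1 changed *Mitf* by -0.23 in WT and 0.38 in DKO MEFs, a difference in response of 0.61, and MK-8722 changed it by -0.73 and -0.42. The part of *Mitf* in the results below was not tested. The fibroblast genes *Vim* (at least 2066 CPM) and *Col1a1* (at least 754 CPM) were high in every library, while *Thy1*, another fibroblast marker, was at 0 in some libraries. Of the macrophage markers, *Adgre1* was at 0 in every library and *Cd68*, which encodes a lysosomal membrane protein, ran from 1.54 to 14.3 CPM and rose with torin1 and MK-8722 in WT MEFs (log2 fold changes of 1.48 and 2.64) and in DKO MEFs (0.47 and 0.94). *Csf1r*, the other macrophage marker of the 5 with enough counts to be tested, was at most 0.645 CPM and fell with torin1 in WT MEFs (-1.08). The summed level of the 5 markers ran from 1.93 to 14.6 CPM. The part of other cell types in the results below was not tested. The 3 WT libraries of passage 11 stood apart from the other WT libraries: their summed level over 20 interferon-stimulated genes ran from 2554 to 3195 CPM, against 193 to 596 CPM in the other 9 WT libraries and 2386 to 4553 CPM in the DKO libraries. Results are given without these libraries where that changes a call, and the part of the interferon-stimulated genes in the genotype comparisons was not tested.

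The promoters of 4 of the 10 genes shared a feature, the E-box, and they are shown here because it is the sequence that TFEB and TFE3 bind. The genes were chosen as lysosomal genes, many of which have E-boxes in their promoters, and with earlier results of these data known. The matches are therefore not independent of the choice of genes. RefSeq promoters of mouse build GRCm38.p6, running from 250 bases before to 50 bases after a transcription start, were found for 9 of the genes. *Tpcn1* was not in that table. The motifs searched on both strands were the E-box core CACGTG, the longer palindrome TCACGTGA, which contains the core, and TCATGTGA. Capitals below mark the core, or TCACGTGA where that is present, 5′ to 3′ on the gene's strand. The last sequence, of *Ctns*, holds none of the motifs and is shown because *Ctns* rose most of these genes in WT MEFs.
*Mcoln1*, chr8:3500269-3500568, plus strand: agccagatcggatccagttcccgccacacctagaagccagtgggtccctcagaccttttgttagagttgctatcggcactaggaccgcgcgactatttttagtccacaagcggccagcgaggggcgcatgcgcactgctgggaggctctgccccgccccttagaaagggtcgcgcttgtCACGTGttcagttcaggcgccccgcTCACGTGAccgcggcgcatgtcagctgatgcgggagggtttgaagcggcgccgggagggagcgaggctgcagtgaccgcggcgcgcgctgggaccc
*Clcn7*, chr17:25133141-25133440, plus strand: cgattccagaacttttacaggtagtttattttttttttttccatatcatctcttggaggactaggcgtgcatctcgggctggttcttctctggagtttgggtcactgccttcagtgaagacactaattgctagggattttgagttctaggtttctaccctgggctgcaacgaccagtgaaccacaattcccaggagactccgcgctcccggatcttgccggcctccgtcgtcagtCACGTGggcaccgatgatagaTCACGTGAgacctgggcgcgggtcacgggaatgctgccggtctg
*Slc36a1*, chr11:55204090-55204389, plus strand: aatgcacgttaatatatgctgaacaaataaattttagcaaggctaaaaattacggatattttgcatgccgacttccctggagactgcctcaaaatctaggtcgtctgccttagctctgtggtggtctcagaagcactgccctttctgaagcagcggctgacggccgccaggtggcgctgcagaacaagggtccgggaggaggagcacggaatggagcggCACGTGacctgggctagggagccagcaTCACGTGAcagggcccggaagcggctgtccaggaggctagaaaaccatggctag
*Cln3*, chr7:126583187-126583486, minus strand: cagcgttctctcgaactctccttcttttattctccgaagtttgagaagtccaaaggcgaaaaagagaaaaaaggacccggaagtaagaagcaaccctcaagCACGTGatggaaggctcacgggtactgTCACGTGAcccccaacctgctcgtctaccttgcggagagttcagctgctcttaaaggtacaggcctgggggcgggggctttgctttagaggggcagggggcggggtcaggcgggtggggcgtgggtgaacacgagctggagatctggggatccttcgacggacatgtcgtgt
*Ctns*, chr11:73198970-73199269, minus strand: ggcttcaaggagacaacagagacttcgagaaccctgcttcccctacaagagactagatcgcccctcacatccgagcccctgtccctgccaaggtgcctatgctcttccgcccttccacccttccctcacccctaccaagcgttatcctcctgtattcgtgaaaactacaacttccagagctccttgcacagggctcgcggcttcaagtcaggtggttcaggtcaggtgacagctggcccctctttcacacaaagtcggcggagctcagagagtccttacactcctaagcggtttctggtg

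Each of the first 4 promoters held CACGTG at 2 places, and in each the second place was part of TCACGTGA. In *Mcoln1* the cores began at -71 and -45 from the transcription start, in *Clcn7* at -15 and 8, in *Slc36a1* at -31 and -3, and in *Cln3* at -149 and -121. The cores of a pair began 26 bases apart in *Mcoln1*, 22 in *Clcn7*, and 28 in both *Slc36a1* and *Cln3*. Of 32851 RefSeq promoters of the same length, 7.15% held CACGTG, 0.974% held TCACGTGA and 0.594% held CACGTG at 2 or more places. These shares are per promoter, and the 9 genes had 12 promoters, of which 4 held CACGTG. TCATGTGA was in 0 of the 9 genes' promoters and in 0.986% of all promoters. The second RefSeq promoters of *Clcn7* and *Cln3*, and those of *Ctns*, *Ostm1*, *Slc38a9*, *Slc17a5* and *Tpcn2*, held none of the motifs in this window. The *Cln3* promoter shown starts downstream of its other RefSeq start.

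**Figure D1:**
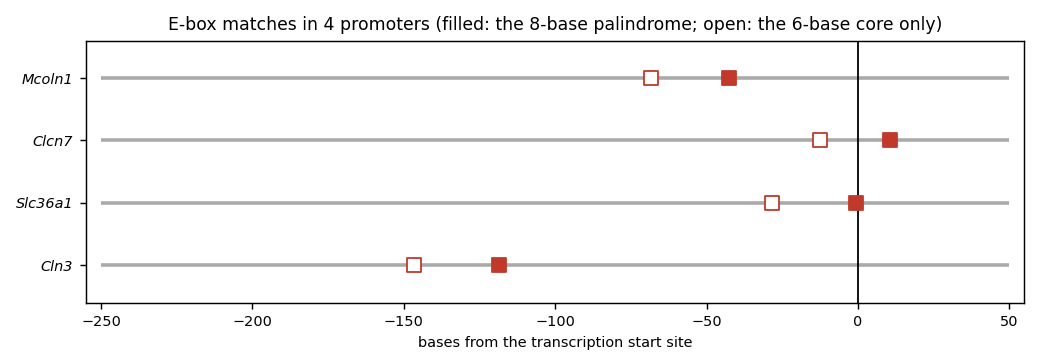
Position of CACGTG in 4 promoters, in bases from the transcription start (vertical line); each grey line is the window from 250 bases before to 50 after the start. Open squares are the core alone and filled squares the core within TCACGTGA; each promoter holds 1 of each, the filled one being the nearer to the right.

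Levels between genes were compared in TPM, a share of all transcripts that corrects for transcript length. *Mcoln1* had the highest mean TPM of the 10 genes in all 6 groups, at 48.8 TPM ± 3.51 (SD, n = 4) in WT MEFs with DMSO, followed by *Clcn7* at 35 TPM ± 2.3, *Tpcn1* at 24.6 TPM ± 1.9 and *Ostm1* at 11.6 TPM ± 0.69. *Slc38a9* at 3.34 TPM ± 0.531 and *Cln3* at 3.03 TPM ± 0.486 were lowest, and their libraries overlapped. The libraries of *Tpcn2* and *Slc36a1*, neighbours in that order, overlapped as well, and the other neighbours did not. In DKO MEFs with DMSO the ranges of *Mcoln1* (35.7 TPM ± 3.41) and *Clcn7* (33.3 TPM ± 1.16) overlapped, and *Tpcn1* stood at 11.4 TPM ± 1.03. The ranges of *Mcoln1* and *Clcn7* also overlapped in DKO MEFs with MK-8722. The rank of *Mcoln1* depends on the transcripts counted. In WT MEFs with DMSO a coding transcript of 363 bases made up 30.5% ± 4.6 of its TPM. Its coding transcript of 2065 bases was at 20.3 TPM there, below that of *Tpcn1* of 4712 bases at 20.7 TPM. In DKO MEFs with DMSO it was at 14.8 TPM, below the coding transcript of *Ostm1* of 3006 bases at 17 TPM. With torin1 it was above both in each genotype, and with MK-8722 in WT MEFs alone. *Ctns* ranked 8 of the 10 in WT MEFs with DMSO, at 5.31 TPM ± 0.0847, and 4 with torin1, at 18.3 TPM ± 1.08, where its libraries overlapped those of both *Tpcn1* above it and *Slc36a1* below it.

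The question of the first comparisons was how each drug changed these genes in WT MEFs. With torin1, 9 of the 10 genes rose and *Tpcn1* fell. With MK-8722, 7 rose and 0 fell. A gene was called changed at an adjusted p under 0.05 (edgeR's quasi-likelihood test, Benjamini-Hochberg over all genes tested) and a fold change of at least 1.2. Over all genes tested, 26.6% were called higher and 20.5% lower with torin1, and 10.3% higher and 5.87% lower with MK-8722. The median log2 fold change of the 10 genes was 0.68 with torin1 and 0.73 with MK-8722, beside 0.049 and -0.015 over all genes tested. In the torin1 comparison the 4 treated and the 4 DMSO libraries did not overlap for any of the 10 genes, which held for 54.1% of all genes, and in the MK-8722 comparison they did not overlap for 8 genes, against 29.8% of all genes. Both comparisons used the same DMSO libraries.

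In DKO MEFs fewer of the genes were called. Torin1 raised 4 (*Mcoln1*, *Slc38a9*, *Tpcn2* and *Slc17a5*) and lowered 2 (*Ostm1* and *Tpcn1*), with 23% of all genes called higher and 20.2% lower. MK-8722 raised 2 (*Mcoln1* and *Slc17a5*) and lowered 0, with 5.47% of all genes called higher and 3.21% lower. The libraries of treated and DMSO groups did not overlap for 7 of the 10 genes with torin1 (52.8% of all genes) and for 3 with MK-8722 (21.1%). With a test against a minimum fold of 1.2 neither MK-8722 call held. The torin1 calls of *Slc38a9* (adjusted p = 0.162, edgeR's glmTreat) and *Slc17a5* (adjusted p = 0.0861, edgeR's glmTreat) were lost there too, and the other torin1 calls held. The difference between the genotypes was tested as the response to a drug in DKO compared to WT MEFs, the interaction term of the fit. The response to torin1 was lower in DKO MEFs for 5 genes (*Mcoln1*, *Ctns*, *Slc36a1*, *Clcn7* and *Ostm1*) and higher for 0, where 6.33% of all genes were called lower and 4.68% higher. The response to MK-8722 was lower for the same 5 genes and for *Cln3*, 6 in all, and higher for 0, where 4.08% of all genes were called lower and 1.42% higher. All 4 genes with CACGTG in a promoter were among those 6, and so were *Ctns* and *Ostm1*, which had none. Of the 4, *Cln3* was not called in the response to torin1 (adjusted p = 0.139, edgeR). Its MK-8722 call was lost in the test against a minimum fold of 1.2 (adjusted p = 0.0883, edgeR's glmTreat). The overlap of promoters and responses was not tested.

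**Figure D2:**
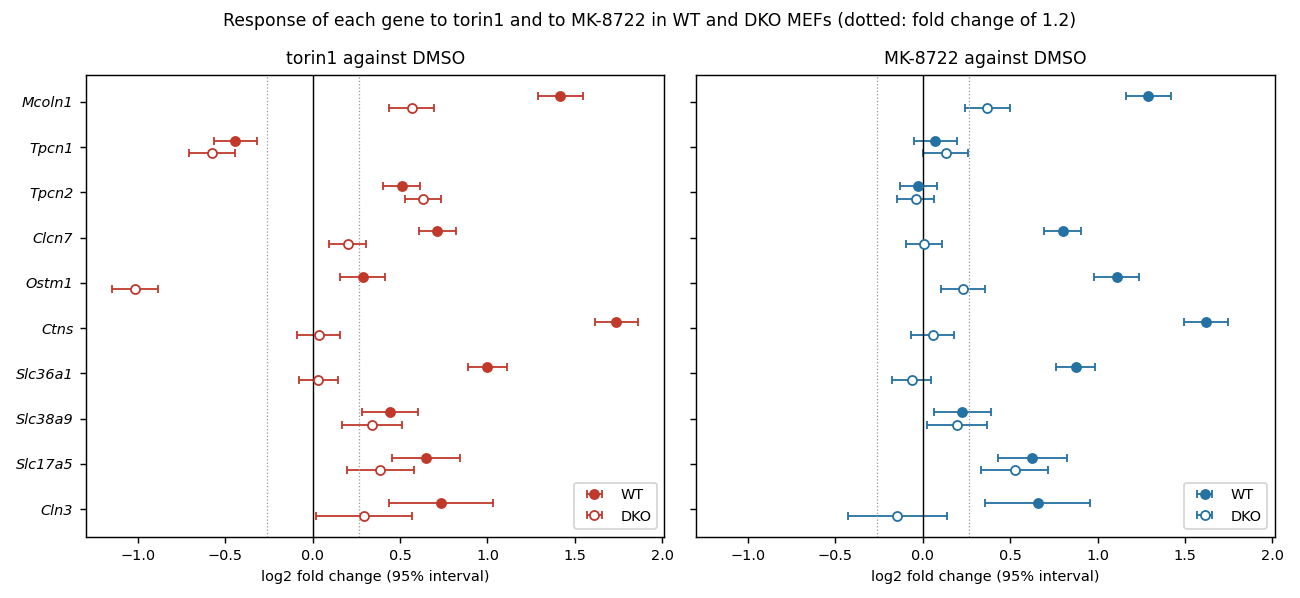
Log2 fold change of each gene with torin1 (left) and MK-8722 (right) against DMSO in WT (filled) and DKO MEFs (open). Bars are 95% intervals computed from the log2 fold change and its SE, and dotted lines mark a fold change of 1.2. *Ctns* lay at 1.74 and 1.62 in WT MEFs and near 0 in DKO MEFs, and *Ostm1* lay above 0 with torin1 in WT MEFs and at -1.02 in DKO MEFs.

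*Mcoln1* (ENSMUSG00000004567, GRCm38 chr8:3500457-3515232, plus strand) encodes the calcium-permeable channel TRPML1. Its 4 WT libraries with DMSO held 38.4, 38.7, 39.4 and 39 CPM, and those with torin1 held 95.5, 107, 105 and 107 CPM. The MK-8722 libraries held 98.6, 91.1, 104 and 86.1 CPM, so both drugs at least doubled the level in every WT library. The log2 fold change was 1.42 ± 0.06 (SE; adjusted p = 1.57e-14, edgeR) with torin1 and 1.29 ± 0.06 (adjusted p = 2.35e-13, edgeR) with MK-8722. In DKO MEFs the DMSO libraries held 29.4, 32.1, 26.5 and 28.7 CPM, the torin1 libraries 44.5, 43.8, 42 and 42.4 CPM, and the MK-8722 libraries 38.9, 39.2, 33.7 and 38.8 CPM. *Mcoln1* therefore rose in DKO MEFs too, and neither treated group overlapped the DMSO group. On the log2 scale the rise was 0.57 ± 0.06 with torin1 (adjusted p = 4.46e-08, edgeR) and 0.37 ± 0.06 with MK-8722 (adjusted p = 2.14e-04, edgeR). The response was lower in DKO than in WT MEFs by 0.85 on the log2 scale for torin1 (log2 difference -0.85 ± 0.09, adjusted p = 2.77e-07, edgeR) and by a similar amount for MK-8722 (-0.92 ± 0.09, adjusted p = 8.27e-08, edgeR).

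*Tpcn1* (ENSMUSG00000032741, GRCm38 chr5:120534153-120588673, minus strand) and *Tpcn2* (ENSMUSG00000048677, GRCm38 chr7:145186524-145284011, minus strand) encode the 2 two-pore channels of endosomes and lysosomes. They moved in opposite directions with torin1, in both genotypes. *Tpcn1* stood at 69.3, 61.2, 71.7 and 68 CPM in WT MEFs with DMSO and at 46.7, 48.9, 50.4 and 52.8 CPM with torin1, a log2 fold change of -0.44 ± 0.06 (adjusted p = 9.31e-07, edgeR). The DKO libraries stood at 34.3, 28.6, 31.8 and 31.6 CPM with DMSO and at 20.6, 22.6, 21.4 and 20.3 CPM with torin1, a log2 fold change of -0.58 ± 0.06 (adjusted p = 4.18e-08, edgeR). Every library with torin1 was thus below every DMSO library of its genotype. *Tpcn2* stood at 14, 13.5, 13.3 and 13 CPM in WT MEFs with DMSO and at 18.8, 20.3, 19.2 and 18.3 CPM with torin1, and at 13.7, 14.3, 14 and 13.4 CPM in DKO MEFs with DMSO and 21.6, 20.7, 22.7 and 20.9 CPM with torin1. Its log2 fold change was 0.51 ± 0.05 in WT MEFs (adjusted p = 7.44e-09, edgeR) and 0.63 ± 0.05 in DKO MEFs (adjusted p = 2.78e-10, edgeR). The genotypes' responses to torin1 differed by -0.13 for *Tpcn1* (95% interval -0.31 to 0.05, adjusted p = 0.348, edgeR) and by 0.12 for *Tpcn2* (-0.02 to 0.27, adjusted p = 0.27, edgeR), neither of which was called.

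MK-8722 called neither two-pore channel gene in either genotype. The log2 fold change of *Tpcn2* was -0.03 in WT MEFs (95% interval -0.13 to 0.08) and -0.04 in DKO MEFs (-0.15 to 0.07), intervals that lie within a fold change of 1.2. That of *Tpcn1* was 0.07 in WT MEFs (-0.05 to 0.2) and 0.13 in DKO MEFs (0.002 to 0.259). The 2 drugs differed for both genes in both genotypes: *Tpcn1* was lower with torin1 than with MK-8722 by a log2 difference of -0.51 in WT and -0.71 in DKO MEFs, and *Tpcn2* was higher by 0.53 and 0.67 (largest adjusted p of the 4 = 1.27e-07, edgeR). Within libraries, the mean ratio of *Tpcn1* to *Tpcn2* in TPM was 2.76 ± 0.228 (SD, n = 4) in WT MEFs with DMSO and 1.52 ± 0.102 with torin1, and 1.25 ± 0.159 and 0.573 ± 0.0532 in DKO MEFs. So *Tpcn2* had the higher gene TPM of the pair in every DKO library with torin1, where the highest ratio was 0.651, and *Tpcn1* had it in every other library. In that DKO group the coding transcript Tpcn2-201 made up 41.9% ± 3.21 of the *Tpcn2* TPM. It was at 5.87 TPM, below the coding transcript Tpcn1-201 at 6.57 TPM, so the order depends on the transcripts counted. The ratio of *Tpcn1* to *Tpcn2* was chosen after the values were seen and was not tested.

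*Clcn7* (ENSMUSG00000036636, GRCm38 chr17:25133391-25162104, plus strand) encodes the lysosomal chloride-proton exchanger ClC-7. Its WT libraries held 78.6, 84.7, 77.4 and 78.4 CPM with DMSO, 131, 132, 129 and 132 CPM with torin1, and 139, 145, 140 and 132 CPM with MK-8722. Both drugs raised it in WT MEFs, by a log2 fold change of 0.71 ± 0.05 with torin1 (adjusted p = 3.4e-11, edgeR) and 0.80 ± 0.05 with MK-8722 (adjusted p = 2.98e-11, edgeR). The DKO libraries held 77, 83.3, 78.2 and 79.2 CPM with DMSO, a range within which 3 of the 4 WT DMSO libraries also lay. They held 92.9, 84, 92.1 and 95.8 CPM with torin1 and 81.6, 73.2, 76.1 and 88.3 CPM with MK-8722. Torin1 there gave a log2 fold change of 0.20 ± 0.05 (adjusted p = 0.00154, edgeR), below the fold threshold, and MK-8722 gave 0.01 (95% interval -0.1 to 0.11). The response was lower in DKO MEFs for both drugs, with a log2 difference of -0.51 ± 0.07 for torin1 (adjusted p = 2.03e-05, edgeR) and -0.79 ± 0.07 for MK-8722 (adjusted p = 4.72e-08, edgeR).

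*Ostm1* (ENSMUSG00000038280, GRCm38 chr10:42583822-42702459, plus strand) encodes the membrane protein that pairs with ClC-7 as its beta subunit. It separated the drugs more than any other of the 10 genes. In WT MEFs it stood at 20.1, 23, 20.9 and 19.7 CPM with DMSO, at 25.9, 24.8, 25.5 and 26 CPM with torin1, and at 46.7, 46.7, 45.8 and 41.5 CPM with MK-8722. The change on the log2 scale was 0.29 ± 0.06 with torin1 (adjusted p = 3.3e-04, edgeR) and 1.11 ± 0.06 with MK-8722 (adjusted p = 3.56e-12, edgeR). In DKO MEFs it stood at 37.6, 32.4, 36.8 and 36.3 CPM with DMSO, at 17.3, 18.7, 18.5 and 16.2 CPM with torin1, and at 41.3, 45.2, 42.8 and 38.1 CPM with MK-8722. Torin1 thus lowered *Ostm1* in DKO MEFs, by -1.02 ± 0.06 on the log2 scale (adjusted p = 4.83e-12, edgeR), in all 4 libraries when each was set against the DMSO library of the same passage. MK-8722 gave 0.23 ± 0.06 in DKO MEFs (adjusted p = 0.00928, edgeR), which is under the fold threshold and was called without replicate 4 of that group (0.27). The response in DKO compared to WT MEFs was -1.30 ± 0.09 for torin1 (adjusted p = 6.14e-10, edgeR) and -0.88 ± 0.09 for MK-8722 (adjusted p = 1.47e-07, edgeR). The rise with torin1 in WT MEFs sat close to the fold threshold of 1.2, a log2 value of 0.26, and was no longer called without replicate 4 of the DMSO group (0.2534), or without replicate 1 (0.251) or 3 (0.2618) of the torin1 group. That rise was also not called without the filter on low counts (0.2556) or in the test against a minimum fold of 1.2 (adjusted p = 0.314, edgeR's glmTreat).

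The ratio of *Ostm1* to *Clcn7* within a library, in TPM, averaged 0.331 ± 0.0127 (SD, n = 4) in the WT DMSO group, 0.259 ± 0.0112 after torin1 and 0.42 ± 0.0227 after MK-8722. The DKO groups averaged 0.598 ± 0.0385, 0.245 ± 0.0207 and 0.686 ± 0.115 in the same order. The 2 genotypes overlapped in this ratio with torin1, between 0.251 and 0.275 in WT and 0.223 and 0.273 in DKO libraries, and did not overlap with DMSO. Like the ratio of the two-pore channels, it was chosen after the values were seen and was not tested.

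**Figure D3:**
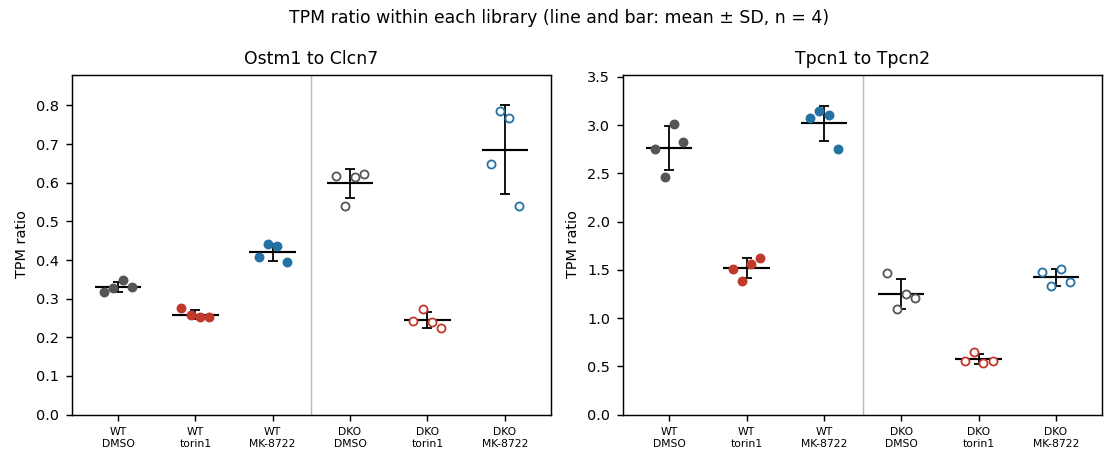
Ratio of *Ostm1* to *Clcn7* (left) and of *Tpcn1* to *Tpcn2* (right) in TPM within each library, by genotype and treatment; points are libraries, filled for WT and open for DKO, with mean and SD of 4. Torin1 libraries lie below the DMSO libraries of their genotype in both panels.

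*Ctns* (ENSMUSG00000005949, GRCm38 chr11:73183596-73199042, minus strand) encodes cystinosin, which exports cystine from the lysosome. It had the largest rise of the 10 genes with either drug in WT MEFs. Its WT libraries held 7.84, 8.19, 7.76 and 8.18 CPM with DMSO, 24.7, 27, 26.6 and 28.4 CPM with torin1, and 24.9, 24.9, 23.5 and 25 CPM with MK-8722. The log2 fold change was 1.74 ± 0.06 with torin1, a 3.33-fold rise (adjusted p = 6.46e-16, edgeR), and 1.62 ± 0.06 with MK-8722, a 3.07-fold rise (adjusted p = 8.68e-15, edgeR). In DKO MEFs the 12 libraries overlapped across treatments, at 14.1, 12.3, 13.1 and 11.9 CPM with DMSO, 14.1, 12.7, 13.2 and 12.7 CPM with torin1, and 13.3, 13.7, 14.2 and 12.2 CPM with MK-8722. On the log2 scale the change was 0.03 with torin1 (95% interval -0.09 to 0.16) and 0.06 with MK-8722 (-0.07 to 0.18), and both intervals lie within a fold change of 1.2. The response in DKO compared to WT MEFs was -1.70 ± 0.08 for torin1 (adjusted p = 7.5e-12, edgeR) and -1.56 ± 0.08 for MK-8722 (adjusted p = 4.6e-11, edgeR). With DMSO, *Ctns* was higher in DKO than in WT MEFs, and with either drug it was lower.

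*Slc36a1* (ENSMUSG00000020261, GRCm38 chr11:55204350-55236330, plus strand) encodes PAT1, a proton-coupled carrier of small amino acids, and followed the same pattern as *Ctns* with a smaller rise. In WT MEFs it stood at 19.6, 23.8, 22.1 and 21.5 CPM with DMSO, 40.3, 44.4, 44.5 and 44.9 CPM with torin1 and 40.1, 41.5, 40.1 and 37.8 CPM with MK-8722. The DKO libraries stood at 28.5, 27.7, 27.8 and 28.6 CPM with DMSO, 28.6, 31.2, 28.7 and 26.7 CPM with torin1 and 27.3, 28.4, 26.3 and 25.9 CPM with MK-8722. No WT library with a drug overlapped the DMSO libraries, whereas in DKO MEFs both drug groups overlapped them. The log2 fold change in WT MEFs was 1.00 ± 0.05 with torin1 (adjusted p = 4.55e-13, edgeR) and 0.87 ± 0.05 with MK-8722 (adjusted p = 2.1e-11, edgeR). In DKO MEFs the 95% intervals were -0.08 to 0.14 and -0.18 to 0.05, within a fold change of 1.2. The response differed between the genotypes by -0.97 ± 0.08 for torin1 (adjusted p = 5.86e-09, edgeR) and -0.94 ± 0.08 for MK-8722 (adjusted p = 1.11e-08, edgeR). Over the 24 libraries the log2 CPM of *Ctns* and *Slc36a1* correlated with Pearson's r = 0.975, and each was the other's nearest gene among all genes tested. The points share the 6 groups, so this describes likeness of pattern only. By the same measure the nearest gene was *Dnase2a* for *Mcoln1* (r = 0.988), which encodes a lysosomal nuclease, *Gnpda1* for *Clcn7* (0.982), *Mia3* for *Tpcn1* (0.989), *Zc3h4* for *Tpcn2* (0.977), *Nceh1* for *Slc38a9* (0.964), *Rara* for *Ostm1* (0.936), *Lpar2* for *Cln3* (0.902) and *Ndrg1* for *Slc17a5* (0.9).

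*Slc17a5* (ENSMUSG00000049624, GRCm38 chr9:78536488-78588041, minus strand) encodes sialin, which exports sialic acid. Its level was between 10.7 and 12.5 CPM in WT MEFs with DMSO, between 14.5 and 20.4 CPM with torin1 and between 17.3 and 18.4 CPM with MK-8722. In DKO MEFs it was between 13.8 and 16.6 CPM with DMSO, between 18.6 and 21.4 CPM with torin1 and between 20.5 and 25.5 CPM with MK-8722. It rose with both drugs in both genotypes, by log2 fold changes of 0.65 ± 0.09 and 0.63 ± 0.09 in WT MEFs and 0.39 ± 0.09 and 0.53 ± 0.09 in DKO MEFs (largest adjusted p of the 4 = 9.29e-04, edgeR). Neither DKO call held in the test against a minimum fold of 1.2 (adjusted p = 0.0861 with torin1 and 0.0721 with MK-8722, edgeR's glmTreat). The genotypes' responses differed by -0.26 for torin1 (95% interval -0.53 to 0.02, adjusted p = 0.203, edgeR) and by -0.10 for MK-8722 (-0.38 to 0.17, adjusted p = 0.792, edgeR), and neither difference was called.

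*Slc38a9* (ENSMUSG00000047789, GRCm38 chr13:112660751-112738749, plus strand) encodes an arginine-sensing amino acid carrier that signals to MTORC1. It ran from 8.16 to 8.69 CPM in WT MEFs with DMSO, from 10.9 to 12.4 CPM with torin1 and from 8.83 to 11.1 CPM with MK-8722, and from 4.97 to 6.53 CPM, 6.86 to 7.77 CPM and 6.18 to 6.96 CPM in the DKO groups in the same order. Torin1 raised it in both genotypes, by 0.44 ± 0.08 (adjusted p = 2.95e-05, edgeR) and 0.34 ± 0.08 (adjusted p = 0.00102, edgeR) on the log2 scale. Both calls were lost when the counts were corrected for the mean length of the transcripts present in each library (0.22, adjusted p = 0.406, and 0.13, adjusted p = 0.662, edgeR). Its transcripts varied between libraries: the coding transcript Slc38a9-201, of 8910 bases, made up 38.1% ± 8.02 (SD, n = 4) of the TPM in WT MEFs with DMSO and 44.6% ± 6.08 with torin1, and a transcript of 681 bases annotated as a nonsense-mediated decay target made up 38.9% ± 15.6 and 30.8% ± 11.1. With MK-8722 the log2 fold change was 0.23 ± 0.08 in WT and 0.20 ± 0.08 in DKO MEFs, and neither was called. The WT value was called without replicate 1 of the WT MK-8722 group (0.26) and turned to -0.11 with the transcript length correction, so its direction depends on that setting.

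*Cln3* (ENSMUSG00000030720, GRCm38 chr7:126571207-126585817, minus strand) encodes battenin, a lysosomal membrane protein whose loss causes juvenile neuronal ceroid lipofuscinosis. It was the least counted of the 10 genes, with 55 to 67 counts per library in WT MEFs with DMSO. Its annotation overlaps by 876 bases that of *Apobr* on the opposite strand, a gene with a mean of 1137 counts per library against 100 for *Cln3*. The strand setting of the counting is not given in the sources used here, so its values are uncertain. *Cln3* held 1.97, 1.66, 2.5 and 1.98 CPM in WT MEFs with DMSO, 3.17, 3.05, 3.57 and 3.62 CPM with torin1, and 3.94, 2.54, 3.58 and 2.65 CPM with MK-8722. It rose with both drugs in WT MEFs, by 0.73 ± 0.14 (adjusted p = 1.04e-04, edgeR) and 0.66 ± 0.14 (adjusted p = 0.00108, edgeR) on the log2 scale. The DKO libraries spanned 3.53 to 4.57 CPM in the DMSO group, 4.53 to 5.55 CPM after torin1 and 3.47 to 3.97 CPM after MK-8722. There it changed by 0.29 ± 0.13 with torin1 (adjusted p = 0.0615, edgeR) and by -0.15 ± 0.13 with MK-8722 (adjusted p = 0.502, edgeR), and neither was called. The torin1 rise was called without the WT libraries of passage 11 (0.31, adjusted p = 0.0298, edgeR) or without replicate 3 of the DKO torin1 group (0.35). A block by passage called it as well (0.30, adjusted p = 0.0266, edgeR). So did limma voom (adjusted p = 0.0389) and edgeR's newer quasi-likelihood mode (adjusted p = 0.0456). It was also called with at least 10 counts in every library, with library size alone, with only the groups compared, and without both passage sets. The call in DKO MEFs therefore depends on the setting. The response to MK-8722 was lower in DKO MEFs (-0.80 ± 0.2, adjusted p = 0.0121, edgeR), and that to torin1 was not called (-0.44 ± 0.19, adjusted p = 0.139, edgeR). In the test against a minimum fold of 1.2 the MK-8722 difference was not called either (adjusted p = 0.0883, edgeR's glmTreat).

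**Figure D4:**
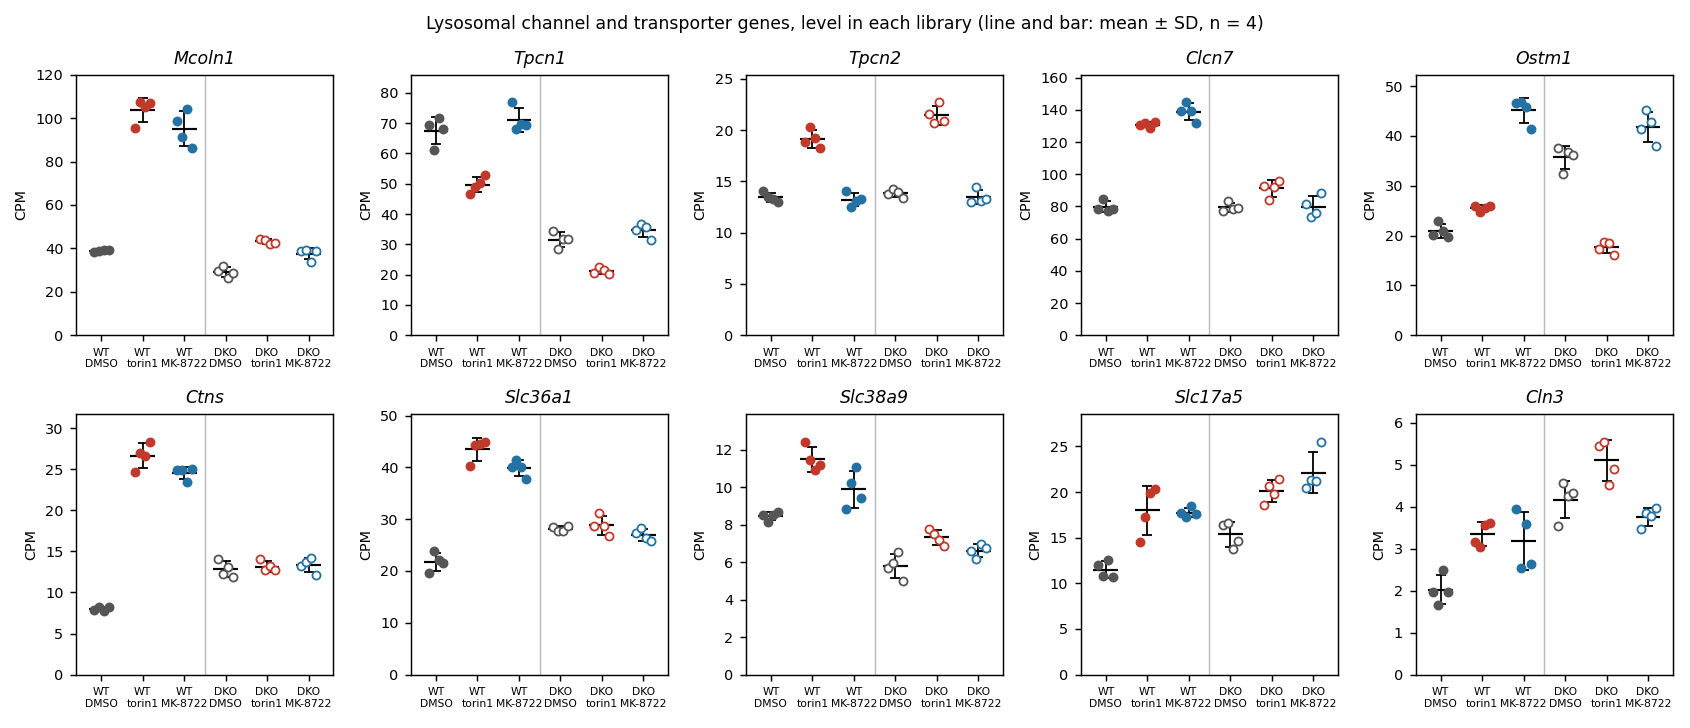
Level of each of the 10 genes in CPM (each panel from 0) in all 24 libraries, by genotype and treatment; points are libraries, filled for WT and open for DKO, with mean and SD of 4. *Ctns*, *Slc36a1*, *Clcn7*, *Cln3* and *Ostm1* rise with both drugs in WT MEFs alone by the call used, and *Ostm1* falls with torin1 in DKO MEFs. *Tpcn1* falls and *Tpcn2* rises with torin1 in both genotypes.

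The comparison of the genotypes depended on the treatment. With DMSO, 5 of the 10 genes were higher in DKO than in WT MEFs (*Ctns*, *Slc36a1*, *Cln3*, *Ostm1* and *Slc17a5*) and 3 were lower (*Mcoln1*, *Slc38a9* and *Tpcn1*), beside 23.5% of all genes higher and 24.6% lower. With torin1, 1 was higher (*Cln3*) and 7 were lower, beside 24% and 27.8% of all genes. With MK-8722, 1 was higher (*Slc17a5*) and 6 were lower, beside 23.3% and 25.4% of all genes. The 2 genotypes did not overlap for 8 of the 10 genes with DMSO (56.8% of all genes), 9 with torin1 (60.3%) and 7 with MK-8722 (54.7%). *Ctns* went from a log2 difference between the genotypes of 0.68 ± 0.06 with DMSO to -1.02 ± 0.06 with torin1 and -0.88 ± 0.06 with MK-8722, and *Slc36a1* from 0.37 ± 0.05 to -0.60 ± 0.05 and -0.57 ± 0.05 (largest adjusted p of the 6 = 2.43e-06, edgeR). With the transcript length correction the DMSO difference of *Slc36a1* was 0.249, under the fold threshold, and was not called. The lower *Slc38a9* in DKO MEFs with MK-8722 was not called there either (-0.42, adjusted p = 0.101, edgeR). *Ostm1* went from 0.77 ± 0.06 with DMSO to -0.53 ± 0.06 with torin1 (adjusted p = 1.01e-07, edgeR) and was at -0.11 ± 0.06 with MK-8722 (adjusted p = 0.113, edgeR). *Tpcn1* was lower in DKO MEFs by about the same amount in every treatment, at -1.10 ± 0.06, -1.23 ± 0.06 and -1.04 ± 0.06. The higher *Slc17a5* with MK-8722 (0.32 ± 0.09, adjusted p = 0.00409, edgeR) sat close to the fold threshold. Without the DKO library of passage 8 the value was 0.24 and not called. It was not called with library size alone (0.2421) either, or in the test against a minimum fold of 1.2 (adjusted p = 0.237, edgeR's glmTreat). *Cln3* with MK-8722 was at 0.24 ± 0.14 (adjusted p = 0.128, edgeR) and was not called. It was called higher in DKO MEFs without replicate 1 of the WT MK-8722 group (0.35) and turned to -0.0209 with the transcript length correction.

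**Figure D5:**
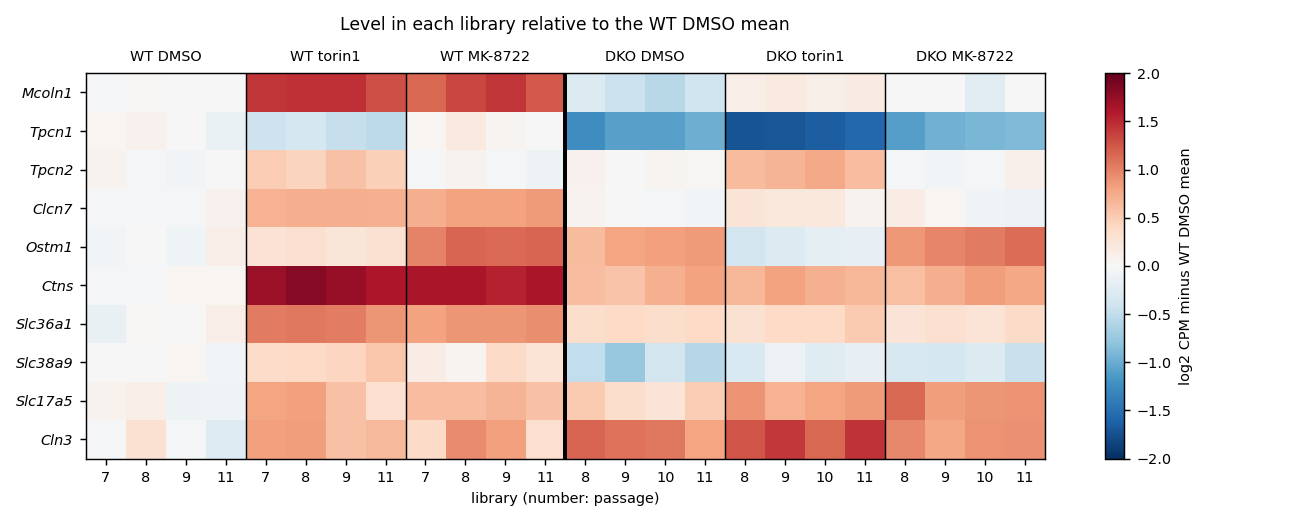
Log2 CPM of each gene in each of the 24 libraries minus the mean of the 4 WT DMSO libraries; columns are libraries ordered by passage within each group, red is higher and blue lower. The DMSO difference between the genotypes runs from *Tpcn1*, lower in DKO MEFs, to *Cln3*, higher in DKO MEFs.

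Comparing the drugs directly at the doses used, 3 of the 10 genes differed in WT MEFs and 4 in DKO MEFs. In WT MEFs *Tpcn2* was higher with torin1, and *Ostm1* and *Tpcn1* were lower, beside 24.9% of all genes higher and 20% lower. In DKO MEFs the same 3 genes differed the same way and *Cln3* was also higher with torin1, beside 21.1% and 19.3% of all genes. The drug groups did not overlap for 3 of the 10 genes in WT MEFs (52.2% of all genes) and 5 in DKO MEFs (49.9%). *Ostm1* had the largest difference in both, at -0.82 ± 0.06 in WT MEFs (adjusted p = 1.2e-10, edgeR) and -1.24 ± 0.06 in DKO MEFs (adjusted p = 2.89e-13, edgeR). For *Mcoln1*, *Ctns* and *Slc36a1* the difference in WT MEFs was 0.13 ± 0.06, 0.12 ± 0.06 and 0.13 ± 0.05, each under the fold threshold. *Slc38a9* was at 0.22 ± 0.08 and was called without replicate 3 of the WT MK-8722 group (0.27). As the drugs act on different kinases and were each used at a single dose, the sizes of their effects were not compared at a matched dose.

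Other transporters and channels of the lysosome, from lists chosen by known function but with earlier results of these data known, were counted beside these genes. The shares over all genes given above apply to each list: in WT MEFs 26.6% rose and 20.5% fell with torin1, and 10.3% and 5.87% with MK-8722. In DKO MEFs 23% rose and 20.2% fell with torin1, and 5.47% and 3.21% with MK-8722. The response in DKO MEFs was lower for 6.33% and higher for 4.68% with torin1, and for 4.08% and 1.42% with MK-8722. Of 32 other lysosomal solute carriers tested, 17 rose and 5 fell with torin1 in WT MEFs, 10 rose and 2 fell with MK-8722, and the response in DKO MEFs was lower for 9 and higher for 1 with torin1 and lower for 7 and higher for 0 with MK-8722. Named by the size of their response difference to torin1, they were *Slc46a3* (-1.92, from 0.459 CPM in WT MEFs with DMSO), *Mfsd1* (-1.15), its partner *Glmp* (-0.95), and *Slc38a7* (-0.79), a glutamine and asparagine exporter of the family of *Slc38a9*. *Mfsd1* and *Glmp* rose together with both drugs in WT MEFs, by 1.43 and 1.10 on the log2 scale with torin1 and by 1.14 and 0.93 with MK-8722.

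A further list held genes of lysosomal and endosomal ion channels, chloride exchangers and associated proteins. Of its 13 genes tested, 4 rose and 5 fell with torin1 in WT MEFs and 5 rose and 1 fell with MK-8722. The response in DKO MEFs was lower for 5 and higher for 1 with torin1 and lower for 3 and higher for 1 with MK-8722. *P2rx4*, an ATP-gated channel, had responses in DKO compared to WT MEFs of -0.80 and -0.72, *Ttyh3* had 0.77 and 0.43, and *Tmem9b* had -0.45 and -0.20, of which the second was not called. The chloride exchanger gene *Clcn5*, a paralogue of *Clcn7*, fell with torin1 in both genotypes (-0.65 and -1.0) and rose with MK-8722 in WT MEFs (0.48). Of 10 paralogues of the 10 genes tested, some of them also in the lists above, 3 rose and 3 fell with torin1 in WT MEFs and 4 rose and 0 fell with MK-8722, and the response in DKO MEFs was lower for 4 with torin1 and for 3 with MK-8722. Among them *Clcn6* rose with both drugs in WT MEFs (0.69 and 0.75), and *Clcn4* fell with torin1 in both genotypes (-0.58 and -0.88).

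Of 11 lysosomal ABC transporters, P-type ATPases and related genes tested, 7 rose and 0 fell with torin1 in WT MEFs and 7 rose and 0 fell in DKO MEFs, and 0 differed in their response to torin1 by the call used. The response to MK-8722 was lower in DKO MEFs for *Lmbrd1* (-0.27) and higher for *Abcb6* (0.32). *Lmbrd1*, which takes part in cobalamin export, rose with torin1 by 0.87 in WT and 0.67 in DKO MEFs. With MK-8722, 2 rose in WT and 1 in DKO MEFs. Of 12 regulators and partners of the channels tested, 2 rose and 3 fell with torin1 and 3 rose and 1 fell with MK-8722 in WT MEFs, and the response in DKO MEFs was lower for 3 and higher for 0 with each drug. *Mtm1*, which encodes a phosphoinositide phosphatase, had the largest response difference, at -0.73 with torin1 and -0.54 with MK-8722. Within this list, *Pikfyve*, *Fig4* and *Vac14* encode the complex that makes the lipid PI(3,5)P2, which opens TRPML1 and the two-pore channels. *Pikfyve* rose with MK-8722 in WT (0.56) and in DKO MEFs (0.30), *Vac14* rose with MK-8722 in WT MEFs (0.43), and *Fig4* (-0.55) and *Vac14* (-0.45) fell with torin1 in DKO MEFs.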

How the data were processed

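mRNA of 24 MEF libraries was sequenced with 52-bp paired-end reads. The authors processed the reads with the nf-core/rnaseq workflow (STAR and salmon, GRCm38, unique molecular identifiers considered) and deposited expected counts, the estimated count of fragments per gene, and TPM per transcript. The study's methods also name batch-effect removal with limma. The labels give a single batch, and no such correction was made here. The gene IDs and symbols of the deposited transcript table were used as they stand.

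Estimated counts were rounded to whole numbers, scaled by TMM and filtered with filterByExpr (minimum count 10). The 24 libraries entered a single model of 6 group means, tested by edgeR's quasi-likelihood method (edgeR 4.0.16, R 4.3.3, legacy mode, 18 residual degrees of freedom). Adjusted p-values are Benjamini-Hochberg over the 15401 genes tested, in 11 comparisons. SE is the log2 fold change over the square root of F. CPM used TMM-scaled library sizes. TPM per gene was summed over the deposited transcript TPM. Locations are from GENCODE M21 on GRCm38 and promoters from RefSeq.

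The members and lists were chosen with earlier results of these data known. All 10 members were named in every comparison. From each list other than the cell type markers, up to 4 genes were named by the size of their response to torin1 in DKO compared to WT MEFs, among those called in either response. Alternatives were DESeq2 1.42.0, limma 3.58.1, other scalings, filters and thresholds, a transcript length correction, replicate and passage blocks, and leaving out libraries. The fit was tested on simulated data. Its first run missed the recovery bar set beforehand, and that bar was replaced, after the result was seen, by criteria on bias, false calls and recovery of large changes, which it met.

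Depths ran from 24668921 to 33332562 counts, and the biological coefficient of variation was 10.7%. Replicate libraries of a group differed by more than sampling noise. The same-numbered libraries were not treated as pairs.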

Additional observations from a re-analysis of the deposited data

Results flagged for a closer look

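Of 60 groups of 4 libraries (10 genes in 6 groups), 5 held a library whose distance from the nearest of the other 3 exceeded Dixon's 95% limit for 4 values, and chance flags about 1 in 20 groups. In WT MEFs with torin1, the library of passage 11 was lowest for *Mcoln1* at 95.5 CPM, against 105 to 107 CPM in the other 3, and for *Slc36a1* at 40.3 CPM, against 44.4 to 44.9 CPM. That library is one of the 3 with high interferon-stimulated genes. In DKO MEFs with MK-8722, *Mcoln1* was lowest in the library of passage 10, at 33.7 CPM against 38.8 to 39.2 CPM. That library had an RNA integrity number of 7.9, against 9.7 to 9.9 in all others, and leaving it out changed no call of the 10 genes. In the same group *Tpcn2* was highest in the library of passage 11, at 14.5 CPM against 13 to 13.3 CPM. In WT MEFs with MK-8722, *Ctns* was lowest in the library of passage 9, at 23.5 CPM against 24.9 to 25 CPM.

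The response to a drug differed between DKO and WT MEFs, by the interaction term of edgeR's quasi-likelihood fit, in 11 cases. For torin1 the log2 difference was -0.85 for *Mcoln1*, -1.70 for *Ctns*, -0.97 for *Slc36a1*, -0.51 for *Clcn7* and -1.30 for *Ostm1*. For MK-8722 it was -0.92 for *Mcoln1*, -1.56 for *Ctns*, -0.94 for *Slc36a1*, -0.80 for *Cln3*, -0.79 for *Clcn7* and -0.88 for *Ostm1*. The case of *Ostm1* with torin1 differs in direction as well: it rose in 4 of 4 passages of WT MEFs and fell in 4 of 4 passages of DKO MEFs.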

How the results depend on the processing

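The numbers of genes called in each response to a drug in DKO compared to WT MEFs were 5 for torin1 and 6 for MK-8722 under every alternative except the test against a minimum fold change (glmTreat), which gave 5 for MK-8722. The call lost there was that of *Cln3*. Over all comparisons, 2 counts moved by more than 1.5 times. With glmTreat the count for MK-8722 in DKO MEFs went from 2 to 0, and with the adjusted p alone the count for torin1 against MK-8722 in WT MEFs went from 3 to 5. Leaving out the WT libraries of passage 11 and the DKO libraries of passage 8 together, an alternative chosen after seeing the data, gave 7 in place of 6 genes for torin1 in DKO MEFs and 6 in place of 7 for the genotypes with MK-8722, and the other counts were equal. Scaling by library size alone moved the median log2 difference of all genes by -0.127 between the genotypes with torin1, and by less than 0.1 elsewhere.

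Replicate numbers did not pair the libraries: deviations of same-numbered libraries within a genotype correlated between -0.414 and 0.657. With the replicate block, 7279 genes were called for torin1 in WT MEFs in place of 7253, and the counts of members called were equal to those without it in all 11 comparisons. Libraries of the same passage within a genotype correlated between 0.022 and 0.657, with 17 of 24 pairs over 0.1, and the labels do not say that a passage marks a shared culture. With a block by passage *Cln3* was also called for torin1 in DKO MEFs (0.2954, higher in 4 of 4 passages), no other call of the 10 genes changed, and the responses to torin1 and MK-8722 had 2367 and 1392 calls over all genes, in place of 1696 and 846.

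Directions turned only for values that were not called. The largest were *Slc38a9* with MK-8722 in WT MEFs (0.2258) and *Cln3* between genotypes with MK-8722 (0.2426), and the next was *Slc38a9* in the response to torin1 (-0.1005). The cause was not tested. With the transcript length correction the log2 values became -0.11 (*Slc38a9*, MK-8722 in WT MEFs), -0.0209 (*Cln3*, genotypes with MK-8722), 0.1658 and 0.016 (*Slc38a9* and *Tpcn2*, response to MK-8722) and -0.21 (*Cln3*, torin1 against MK-8722 in WT MEFs). With library size alone they became -0.03 and -0.05 (*Tpcn2*, genotypes with DMSO and MK-8722) and 0.0055 (*Ctns*, torin1 against MK-8722 in DKO MEFs). Without the filter they became -0.003 and 0.0108 (*Clcn7*, MK-8722 in DKO MEFs and genotypes with DMSO) and -0.0098 (*Slc17a5*, torin1 against MK-8722 in WT MEFs), and with only the groups compared the last became -5e-04. Without the DKO libraries of passage 8, *Clcn7* became -0.0251 (MK-8722 in DKO MEFs) and *Tpcn2* 0.0051 (response to MK-8722). Without the WT libraries of passage 11 values became -0.0211 (*Tpcn2*, genotypes with MK-8722), 0.0029 and 0.0162 (*Slc38a9*, responses to torin1 and MK-8722) and -0.018 (*Cln3*, torin1 against MK-8722 in WT MEFs). Without both sets they became 0.002 (*Tpcn2*, MK-8722 in WT MEFs), -0.0211 and 1e-04 (*Clcn7*, MK-8722 in DKO MEFs and genotypes with DMSO), and 0.0016 and 0.0087 (*Slc38a9*, responses to torin1 and MK-8722).

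Leaving out 1 library at a time, values that crossed 0 ranged from -0.0042 to 0.0884 (*Ctns*) and -0.0017 to 0.0728 (*Slc36a1*) for torin1 in DKO MEFs, from -0.0466 to 0.0462 for *Clcn7* with MK-8722 in DKO MEFs, from -0.0329 to 0.0248 for *Clcn7* between genotypes with DMSO, and from -0.0162 to 0.0438 for *Tpcn2* between genotypes with MK-8722. For the response to MK-8722 they ranged from -0.0947 to 0.033 (*Slc38a9*) and -0.0525 to 0.0321 (*Tpcn2*). For torin1 against MK-8722 they ranged from -0.0294 to 0.182 (*Cln3*) and -0.0541 to 0.0867 (*Slc17a5*) in WT MEFs, and from -0.0545 to 0.0188 (*Ctns*) in DKO MEFs.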
